A study of Mus musculus with 11 samples.

Results

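The nuclear-encoded genes of the mitochondrial respiratory chain and ATP synthase were followed in lateral habenula tissue of mice with an antibody-induced arthritis. Members were chosen by gene symbol from a table of read counts: symbols of the Nduf a, b, c, s and v series (complex I), Sdha to Sdhd (complex II), the Uqcr series (complex III), the Cox4 to Cox8 series (complex IV) and the Atp5 series (complex V), with at least 110 counts over 11 libraries. Of 54532 rows, 97 matched by symbol and 83 reached the minimum: 39 in complex I, 4 in complex II, 8 in complex III, 15 in complex IV and 17 in complex V. All 83 also had enough counts to be tested. Just inside the minimum were Ndufb4c, at 145 counts in all, and Cox7a1, at 189. Just outside were Cox8b, at 95, and the pseudogene row Atp5l2-ps, at 60.

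All mice were BALB/c and 3 months old. CAIA stands for collagen antibody-induced arthritis: a mixture of 5 monoclonal antibodies against type II collagen was given into the peritoneum at 50 mg/kg, and lipopolysaccharide (LPS), a bacterial cell wall component, was given by the same route at 1 mg/kg 3 days later. Controls (Ctrl) received vehicle, so arthritis and LPS cannot be told apart. Libraries of total RNA came from 3 female Ctrl, 3 female CAIA, 2 male Ctrl (replicates 1 and 3) and 3 male CAIA samples. The labels do not say that each sample came from a different mouse, and the p-values reflect only how these libraries scatter, which may be technical. The study asked how rheumatoid arthritis and depression are linked. The lateral habenula is a small nucleus known for signalling aversive outcomes.

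The respiratory chain passes electrons from NADH (through complex I) and succinate (through complex II) to ubiquinone, on through complex III and cytochrome c to complex IV, where oxygen is reduced. Complexes I, III and IV pump protons across the inner mitochondrial membrane, and complex V, the ATP synthase, uses the gradient to make ATP. Complex II is encoded wholly in the nucleus, while the other complexes also hold subunits made from mitochondrial DNA. Neurons depend heavily on this pathway, and several complex IV and complex V subunits exist as isoforms that are used by different tissues.

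Library totals were 25317306 to 29565006 counts. The mean level of 5 lateral habenula markers was 7.73 to 7.99 in log2 CPM (counts scaled to library size, with normalisation factors) over the 11 libraries. Markers of the neighbouring medial habenula (8 genes) were also present in every library, at 6.59 to 7.10. Pineal markers (5 genes) ran from -2.47 in male CAIA 1 to 2.04 in male CAIA 3. They were at 0.62 in male Ctrl 1, -2.25 in male Ctrl 3 and 0.19 in female Ctrl 3. Markers of the choroid plexus, the epithelium beside the habenula that makes cerebrospinal fluid, did not overlap between treatments: the mean level of 14 markers was 5.26 to 6.19 in Ctrl and 1.76 to 4.79 in CAIA. Markers of hippocampus and cortex, 7 genes, were at 2.95 to 5.09 in Ctrl and 3.49 to 4.89 in CAIA. In females the groups overlapped, at 5.09, 3.16 and 4.44 in Ctrl and 4.34, 3.87 and 3.49 in CAIA. In males they did not, at 2.96 and 2.95 in Ctrl and 4.58, 4.89 and 4.17 in CAIA. The part of tissue makeup in the values below was not tested, except where a value is given. In bulk tissue, fewer cells of a type and less RNA per cell cannot be told apart.

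The members were abundant and differed widely in level per transcript length. In reads per kilobase of the longest principal transcript, scaled to library size as CPM is (RPKM, mean ± SD over 11 libraries), the highest was Atp5b, the catalytic beta subunit of ATP synthase, at 570 ± 41.4. Next came 3 genes of complex IV and 1 of complex V whose SDs overlapped: Cox6a1 at 450 ± 76.7, Cox4i1 at 431 ± 55.5, Atp5a1 at 389 ± 18.9 and Cox8a at 362 ± 67.8. Atp5g3, a gene for the proton-carrying c ring, was at 258 ± 22.2. The highest member of complex I by name was Ndufa4, at 186 ± 19.1, whose protein is now placed in complex IV. Sdha, the flavoprotein of complex II, was at 153 ± 6.49, and Uqcrc1, a core protein of complex III, was at 158 ± 16.8. The lowest members were Ndufb4c at 1.25 ± 0.47, Cox7a1 at 1.59 ± 0.65, Cox4i2 at 1.83 ± 0.50 and Ndufa4l2 at 2.42 ± 0.69.

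By complex, the median RPKM was 58.0 in complex I, 76.1 in complex II, 91.2 in complex III, 111 in complex IV and 100.5 in complex V. These levels depend on the length used. With all exons of a gene joined, 41 members were lower by more than 1.5 times, and the medians were 34.1, 53.5, 60.5, 53.0 and 33.9. The order of the complexes was therefore not the same, while Atp5b, Cox6a1, Cox4i1, Atp5a1 and Cox8a remained the 5 highest members.

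The clearest feature of the members was a level that they shared within a library and that was not ordered by treatment. The mean log2 CPM of the 83 members was 5.77, 5.68 and 5.53 in female Ctrl 1 to 3 and 5.65, 5.72 and 5.91 in female CAIA 1 to 3. It was 6.08 and 5.71 in male Ctrl 1 and 3, and 5.76, 5.67 and 5.83 in male CAIA 1 to 3. The highest and the lowest library were thus both controls, male Ctrl 1 and female Ctrl 3, and the CAIA libraries lay between them.

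Single members followed these libraries. Of the 83, 70 (84.3%) were highest in male Ctrl 1, against 20.0% of all genes tested, and 46 (55.4%) were lowest in female Ctrl 3, against 14.4% of all genes tested. Over all genes tested these 2 libraries were extreme in the other direction too. Male Ctrl 1 was the lowest library for 19.7% of them and female Ctrl 3 the highest for 15.2%. Among the members, 0 were lowest in male Ctrl 1 and 0 highest in female Ctrl 3. By complex, male Ctrl 1 was the highest library for 32 of 39 members of complex I, 3 of 4 of complex II, 6 of 8 of complex III, 14 of 15 of complex IV and 15 of 17 of complex V. Among the 13 members highest elsewhere were Ndufs1, Ndufa9, Ndufa12, Ndufb1-ps, Sdha and Uqcrc2 (female CAIA 3), Ndufb2 (female CAIA 2), Ndufa4l2, Cox4i2 and Atp5d (male CAIA 2), Atp5s (male CAIA 3) and Uqcr11 (female Ctrl 1).

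**Figure D1:**
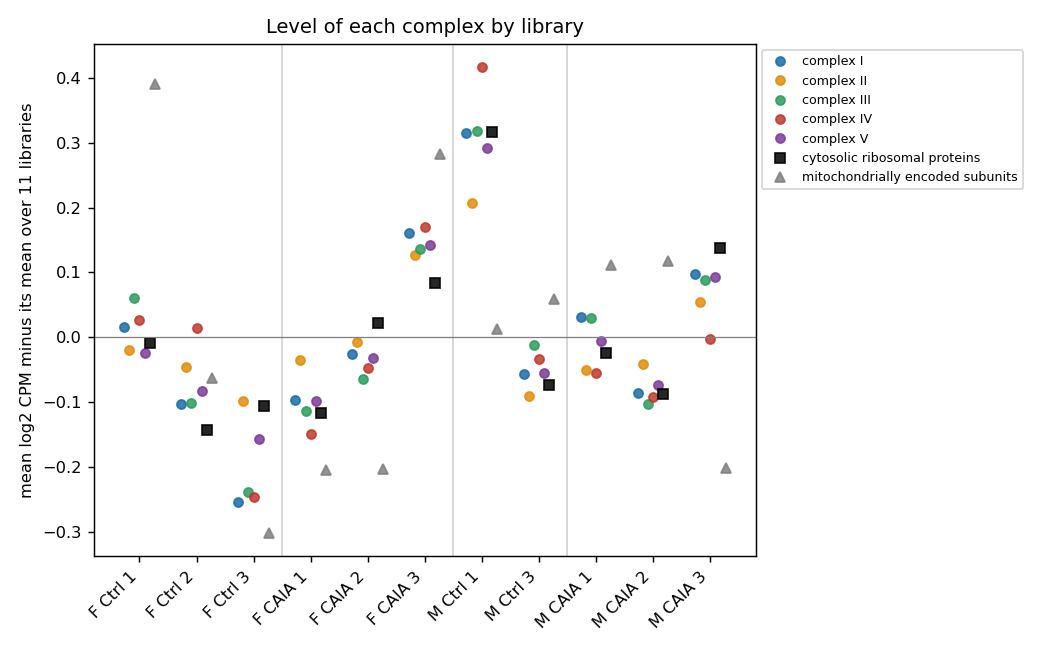
Level of each complex in each of the 11 libraries (F, female; M, male): mean log2 CPM of the members, minus its mean over the libraries. Squares are 84 cytosolic ribosomal protein genes and triangles the 13 mitochondrially encoded subunits. All 5 complexes are highest in M Ctrl 1 and lowest in F Ctrl 3.

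The size of this shared shift differed little between complexes I, III and V and was smallest in complex II. Male Ctrl 1 exceeded male Ctrl 3 by 0.37 (log2) in complex I, 0.30 in complex II, 0.33 in complex III, 0.45 in complex IV and 0.35 in complex V. Against the mean of the other 10 libraries, it exceeded them by 0.35, 0.23, 0.35, 0.46 and 0.32. The 2 male controls therefore differed from each other by more than the CAIA and Ctrl means of either sex differed for any complex.

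Ribosomal protein genes were also highest in male Ctrl 1. The cytosolic ones (84 genes) were at 5.96 there and at 5.50 to 5.78 in the others, with the lowest value in female Ctrl 2 and 5.54 in female Ctrl 3. The mitochondrial ones (77 genes) were at 4.76 in male Ctrl 1 and at 4.36 to 4.58 in the others, lowest in female Ctrl 3. The mean over all genes tested was 3.23 in male Ctrl 1, inside the 3.19 to 3.29 of all libraries. In male Ctrl 1 the astrocyte markers (9 genes) were the lowest of all libraries, at 7.82, while the neuron markers (9 genes), at 8.80, lay inside the 8.55 to 8.84 of all libraries. Female Ctrl 3 had the lowest neuron marker level, 8.55, the highest oligodendrocyte marker level (8 genes), 8.78, and the highest choroid plexus level, 6.19. It was also the lowest library for the thalamus markers (6 genes), at 7.17, and for the lateral habenula markers, at 7.73. The thalamus markers were at 7.92 in male Ctrl 1, second to female Ctrl 2 at 7.99. The part of these differences in the members' level was not tested.

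**Figure D2:**
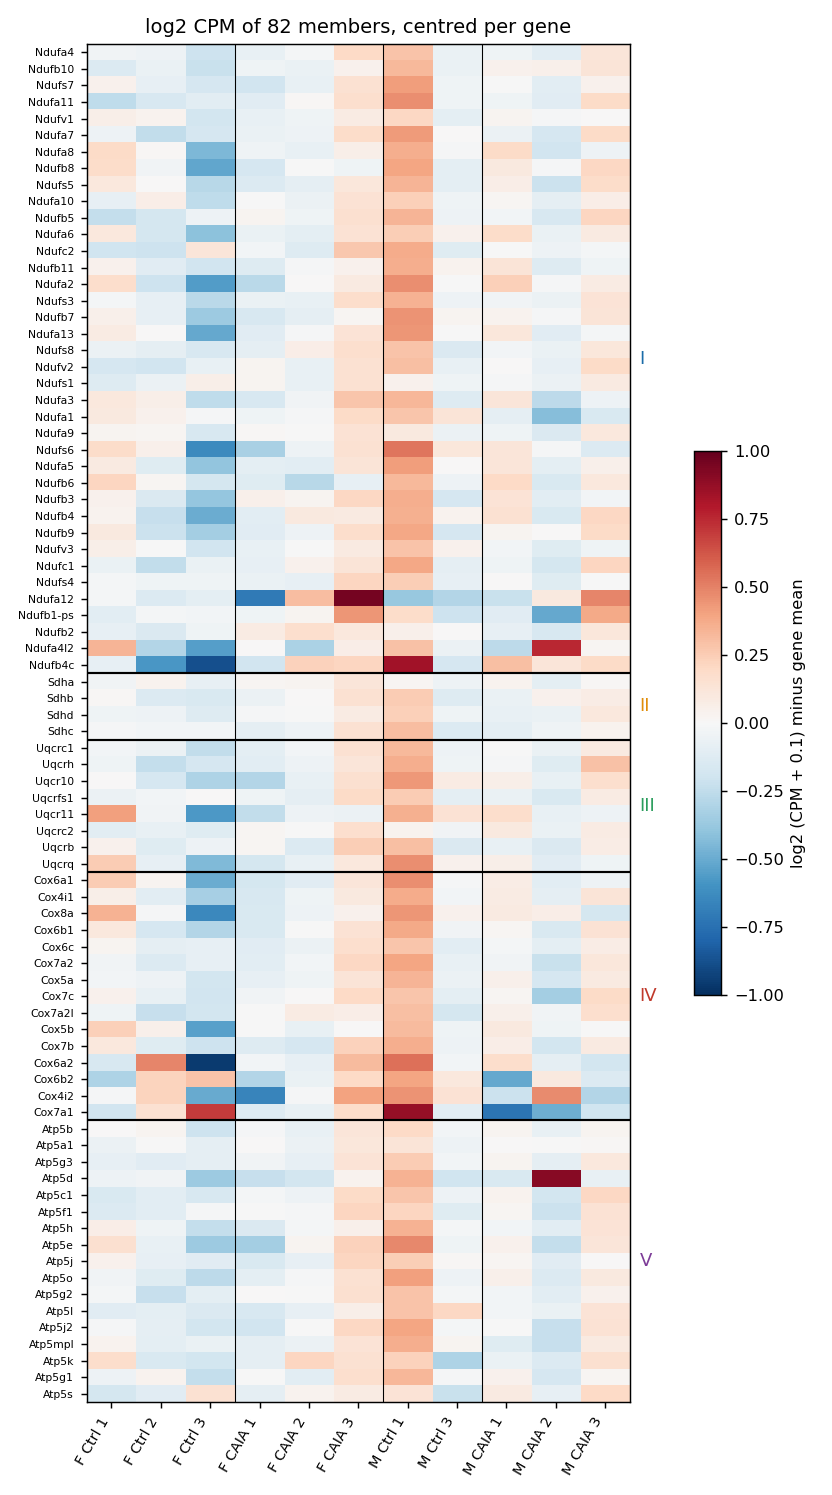
Each row is 1 of 82 members, grouped by complex and ordered by RPKM within it, and each column is a library (F, female; M, male). Colour is log2 (CPM + 0.1) minus the gene's mean over 11 libraries, from -1 to 1. Male Ctrl 1 is the highest library in 70 rows and female Ctrl 3 the lowest in 45, while no block of columns separates CAIA from Ctrl.

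Each complex was also set against the mean of all 83 members in the same library. Complex I then stayed between -0.43 and -0.38 (log2), a range of 0.058 over 11 libraries, against 0.57 before, but 39 of the 83 genes in the subtracted mean are its own. The range of complex III was 0.079, of complex V 0.10 and of complex IV 0.17. The range of complex II was 0.24, against 0.31 before, but with its ends exchanged. Male Ctrl 1 was now its lowest library, at 1.18, and female Ctrl 3 its highest, at 1.42. The subtracted mean of all members had a range of 0.55, more than complex II itself. Complex IV was at -0.41, -0.34 and -0.45 in female Ctrl, -0.33 and -0.41 in male Ctrl, -0.47, -0.44 and -0.41 in female CAIA and -0.48, -0.43 and -0.50 in male CAIA. The groups overlapped, with a CAIA minus Ctrl mean of -0.069, and the lowest 2 libraries were male CAIA. For the other complexes this mean was between -0.014 and 0.026. No test was made on these list values.

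The promoters of the members were set against those of all genes with a window. Members highest in male Ctrl 1 were not compared with those highest elsewhere. Respiratory chain promoters are known for binding nuclear respiratory factor 1 (NRF1), ETS family factors, YY1 and estrogen-related receptors (ERR). RefSeq windows (GRCm38.p6, 250 bases before to 50 after a gene's start) matched 67 of the 83 members by symbol, and 4 motifs were searched for on both strands. The NRF1 motif, whose letters stand in capitals in the stretches printed next (any base is allowed at the sixth), was found in 17 of 67 members (25.4%), against 5.19% of 27025 genes with a window. The YY1 motif AAGATGGCG was found in 7 (10.4%, against 1.64%), the ETS motif CCGGAAGT in 5 (7.46%, against 4.31%) and the ERR motif TCAAGGTCA in 2 (2.99%, against 0.466%). A match is a description of the letters, not a binding site or a cause, and the counts of a motif say nothing of the factor in these samples.

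The NRF1 motif was held by 7 of 33 windows of complex I (Ndufa5, Ndufa6, Ndufa8, Ndufa11, Ndufb4, Ndufs5, Ndufs6), 2 of 3 of complex II (Sdha, Sdhd), 1 of 5 of complex III (Uqcrc1), 1 of 11 of complex IV (Cox6a1) and 6 of 15 of complex V (Atp5c1, Atp5g2, Atp5g3, Atp5h, Atp5k, Atp5o). For 6 of the members that hold the motif, stretches of 60 bases upstream of the start are printed. Of these, 2 are from complex I, 2 from complex II and 1 each from complexes IV and V. All lie on the minus strand of GRCm38.p6, are written 5′ to 3′ along the gene, and carry the NRF1 motif in capitals. They are chr4:123718250-123718309 (Ndufs5, an accessory subunit), chr16:37654525-37654584 (Ndufb4, an accessory subunit), chr13:74350304-74350363 (Sdha), chr9:50603894-50603953 (Sdhd, a membrane anchor), chr5:115349086-115349145 (Cox6a1, where an exon of the noncoding gene Gm42903 lies on the other strand) and chr11:115420026-115420085 (Atp5h, the d subunit of the peripheral stalk).
Ndufs5: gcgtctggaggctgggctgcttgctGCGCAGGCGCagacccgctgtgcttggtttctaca
Ndufb4: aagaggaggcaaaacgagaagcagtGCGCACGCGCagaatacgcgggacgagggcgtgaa
Sdha: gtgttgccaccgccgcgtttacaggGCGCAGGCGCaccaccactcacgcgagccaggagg
Sdhd: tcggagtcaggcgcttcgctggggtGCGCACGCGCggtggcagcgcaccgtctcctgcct
Cox6a1: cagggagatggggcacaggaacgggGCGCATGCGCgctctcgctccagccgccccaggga
Atp5h: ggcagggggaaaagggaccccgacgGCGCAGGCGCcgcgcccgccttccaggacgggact

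The comparison of CAIA with Ctrl over both sexes, weighted equally, found no member that passed. In edgeR's quasi-likelihood test, 0 of 83 members reached an adjusted p of 0.05, where 0.596% of all 19619 genes did. At an unadjusted p under 0.05 there were 2 members, Ndufa1 and Cox7a1, a share of 2.41% against 6.36% of all genes. DESeq2 and limma-voom called 0 members, and edgeR without a filter on low counts called 1, Ndufa12. The fitted log2 fold change was above 0 for 30 members (50.0% of all genes) and below 0 for 53, with a median of -0.019 (0.00017 over all genes). No member had all 6 CAIA libraries below all 5 Ctrl libraries (1.01% of all genes did), and none had them all above (0.168%).

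Fold changes were small against their errors. The median standard error of a member was 0.12 in females, 0.14 in males and 0.092 (log2) over both sexes, and 5 members had a fitted change of more than 0.2 in either direction. The smallest adjusted p of any member was 0.912 in females, 0.573 in males and 0.637 over both sexes (edgeR). These values do not show that the members were equal in CAIA and Ctrl.

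Within each sex the members leaned in opposite directions. In females 0 members passed (0.260% of all genes) and 1 had an unadjusted p under 0.05 (5.22%), yet 77 of 83 fitted fold changes were above 0, against 49.5% of all genes, with a median of 0.094. In males 0 passed (0.00%) and 5 had an unadjusted p under 0.05 (5.63%), and 76 of 83 were below 0, against 50.2% of all genes, with a median of -0.14. Groups did not overlap for 8 members higher in every female CAIA library (5.08% of all genes), 5 lower in every male CAIA library (8.51%) and 1 higher in every male CAIA library (9.18%). No member was lower in every female CAIA library (6.39% of all genes).

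Some other lists leaned the same way within each sex. The cytosolic ribosomal proteins were above 0 for 67 of 84 genes in females (median 0.11) and below 0 for 76 of 84 in males (-0.11). Thalamus markers were above 0 for 6 of 6 genes in females (0.10) and below 0 for 6 of 6 in males (-0.17), and red blood cell markers for 5 of 5 (0.27) and 5 of 5 (-0.36). Others did not. Hippocampus and cortex markers were below 0 for 5 of 7 genes in females (-0.32) and above 0 for 7 of 7 in males (1.81). In males, astrocyte markers were above 0 for 7 of 9 genes, microglia markers for 6 of 8 and neuron markers for 5 of 9. The part of these lists in the members' values was not tested.

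The direction in males depended on which control was used. Without male Ctrl 1, 60 of 83 members were above 0 in males, with a median of 0.045, and over both sexes 68 were above 0, with a median of 0.065. Without male Ctrl 3, 81 were below 0 in males, with a median of -0.31. In that fit, with 1 male control, 39 members had an unadjusted p under 0.05 against 17.2% of all genes, and 0 passed against 0.691%. With the choroid plexus level as a covariate, which itself differs between the treatments, the median over both sexes was -0.25 in complex I and -0.37 in complex IV, and 0 members passed. In females that covariate turned the direction, with 18 members above 0, 65 below and a median of -0.17. With the neuron marker level as a covariate, 50 members were above 0 in females (median 0.021) and 77 below 0 in males (-0.17), and over both sexes the median was -0.071. In females 49 were above 0 without female CAIA 3 (median 0.012) and 53 without female Ctrl 3 (median 0.042).

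**Figure D3:**
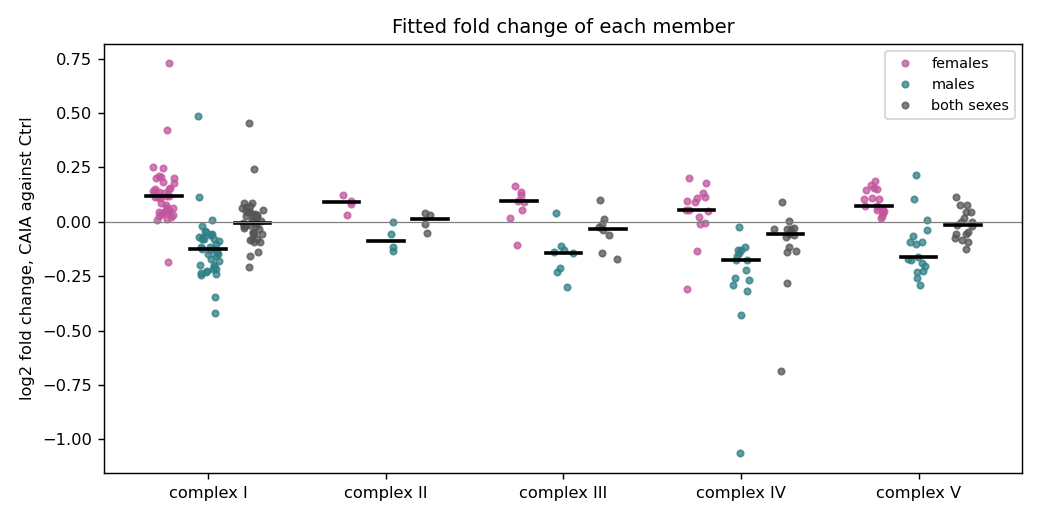
Fitted log2 fold change, CAIA against Ctrl, of each member by complex, in females (pink), in males (teal) and over both sexes (grey). Each point is a gene and each bar a median. Female medians lie between 0.056 and 0.12 and male medians between -0.18 and -0.088, and none of the members passed.

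The difference between the female and the male effect was tested as a contrast of its own. In edgeR 0 members passed (0.00% of all genes) and 5 had an unadjusted p under 0.05 (4.11%): Ndufa1, Atp5g2, Ndufa7, Ndufa11 and Atp5l. The female effect was fitted above the male one for 78 of 83 members (48.0% of all genes), with a median difference of 0.25, and for 63 with a median of 0.047 without male Ctrl 1. Females against males, over both treatments, gave 0 passing members (0.0459% of all genes), 7 with an unadjusted p under 0.05 (6.76%) and 75 below 0 (49.0%). The 3 with the lowest p were Atp5l at -0.22 ± 0.065 (log2 ± SE), Ndufb7 at -0.25 ± 0.090 and Uqcr10 at -0.27 ± 0.095, with edgeR adjusted p of 0.717, 0.731 and 0.731. These contrasts use the same 2 male controls as the male comparison. Without male Ctrl 1, 52 members were below 0 in females against males (median -0.020) and 1 had an unadjusted p under 0.05 (6.01% of all genes). Without male Ctrl 3, 79 were below 0 (median -0.21) and 40 had an unadjusted p under 0.05 (15.3%).

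Complex I oxidises NADH. Its 39 members had a median log2 fold change of 0.12 in females, -0.12 in males and -0.0071 over both sexes, with 38 above 0 in females and 36 below 0 in males. The 7 core subunits that carry the flavin and iron-sulfur clusters (such as Ndufv1, Ndufs1 and Ndufs7) lay between -0.094 and 0.052 over both sexes.

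The 32 other complex I members, mostly accessory subunits of the membrane arm, had a median of -0.011 over both sexes. Ndufa1 (ENSMUSG00000016427, chromosome X, 37187588 to 37191163, GRCm38), a small membrane subunit needed for assembly, was at 22.2, 21.3 and 20.5 CPM in female Ctrl and 20.1, 20.6 and 23.6 in female CAIA. In males it was at 25.1 and 22.6 in Ctrl and 19.5, 15.4 and 18.7 in CAIA. The female groups overlapped, while every male CAIA library was below both male controls. The fold change was -0.42 ± 0.12 in males (unadjusted p = 0.00358, edgeR adjusted p = 0.573), 0.0066 ± 0.11 in females and -0.21 ± 0.081 over both sexes (adjusted p = 0.637). The female effect minus the male one was 0.43 ± 0.16 (edgeR adjusted p = 0.978).

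Ndufa12 (ENSMUSG00000020022, chromosome 10, 94198720 to 94221443), an accessory subunit, varied in a pattern of its own. It was at 15.7, 14.5 and 14.9 CPM in female Ctrl and 9.71, 19.7 and 30.9 in female CAIA, with 12.2 and 13.0 in male Ctrl and 13.6, 17.0 and 22.3 in male CAIA. Control values were tight and CAIA values spread over a wide range, with the lowest library of all also being CAIA. The fold change over both sexes was 0.45 ± 0.27 (edgeR adjusted p = 0.881). Without the filter on low counts it was 0.46 with an adjusted p of 0.000819, in a fit where 470 genes passed, while over all settings tried the adjusted p ran from 0.000819 to 0.999. Without female CAIA 3 the fold change over both sexes was 0.22.

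Other accessory subunits gave smaller differences. Ndufb2 was at 26.2, 25.1 and 26.9 CPM in female Ctrl and 29.3, 31.1 and 29.8 in female CAIA, with 28.6 and 27.7 in male Ctrl and 26.2, 24.8 and 29.97 in male CAIA. All 3 female CAIA values were above the female controls, with a fold change of 0.20 ± 0.090 in females (edgeR adjusted p = 0.912). Ndufb6 was the only complex I member below 0 in females, at -0.18 ± 0.13, with -0.14 ± 0.097 over both sexes. Ndufv3, a short subunit near the flavin site, was lower in every male CAIA library, at 45.9, 43.1 and 45.4 CPM against 56.9 and 48.1, and its male fold change was -0.23 ± 0.10 (edgeR adjusted p = 0.878). Ndufb11 was at -0.083 ± 0.077 over both sexes, and Ndufa7 was at 0.18 ± 0.12 in females and -0.24 ± 0.14 in males.

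Ndufa4l2, a gene related to Ndufa4 and known from hypoxic cells, was at 1.46 to 2.80 CPM in Ctrl and 1.74 to 3.77 in CAIA, the highest being male CAIA 2. It made up 0.969% to 2.29% of the summed RPKM of Ndufa4 and Ndufa4l2. Ndufb4c, annotated as a processed pseudogene, was at 6 to 24 counts per library. Its fold change of 0.73 ± 0.46 in females rests on these few counts, and reads of near-identical copies may have been split between it and Ndufb4.

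**Figure D4:**
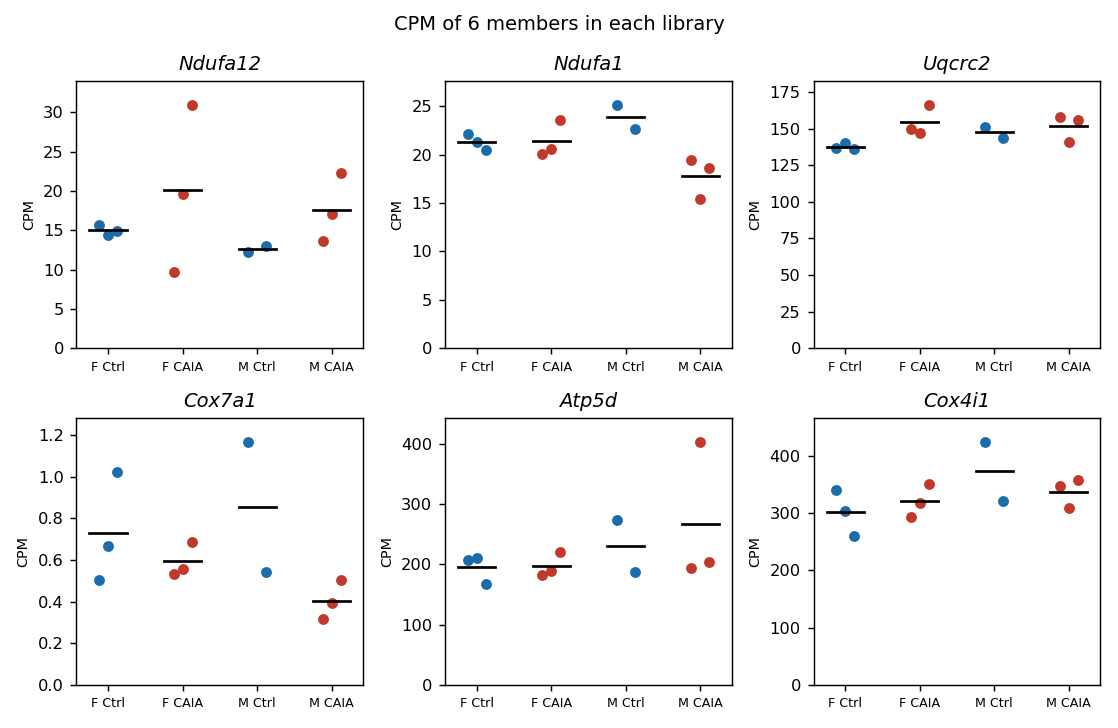
CPM of 6 members in each library, by sex (F, female; M, male) and treatment, with a bar at each group mean and axes from 0. Ndufa12 is spread in CAIA (9.71 to 30.9), Ndufa1 is lower in male CAIA than in male Ctrl, Cox7a1 is near 1 CPM or under, 1 male CAIA library holds the high value of Atp5d (403), and Cox4i1 is highest in M Ctrl 1 (424).

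Complex II oxidises succinate and also belongs to the citric acid cycle. Its 4 members had medians of 0.089 in females, -0.088 in males and 0.012 over both sexes. Sdha (chromosome 13, 74322254 to 74350280) was the steadiest of all 83 members, with the smallest range over the 11 libraries, 0.21 on the log2 scale. It was at 431, 453 and 418 CPM in female Ctrl, 448, 450 and 480 in female CAIA, 449 and 427 in male Ctrl and 452, 414 and 445 in male CAIA. Both pairs of groups overlapped, and the fold change over both sexes was 0.039 ± 0.061 (edgeR adjusted p = 0.962).

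The iron-sulfur subunit gene Sdhb was at 0.033 ± 0.076 over both sexes, and the membrane anchor genes Sdhc and Sdhd at -0.052 ± 0.079 and -0.010 ± 0.065. Sdhd was at 71.4, 71.1 and 67.4 CPM in female Ctrl and 73.0, 73.4 and 78.1 in female CAIA, with 87.3 and 71.7 in male Ctrl and 70.3, 70.4 and 79.3 in male CAIA. Female CAIA lay above female Ctrl in every library, and the male groups overlapped. In male Ctrl 1 Sdhc was at 112 CPM, with 82.4 to 90.2 in the other controls, while the Sdha value there lay inside the range of its other libraries.

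Complex III passes electrons from ubiquinol to cytochrome c. Its 8 members had medians of 0.093 in females, -0.14 in males and -0.031 over both sexes. The core protein gene Uqcrc2 was among the 7 members above 0 in males. It was at 137, 140 and 136 CPM in female Ctrl and 150, 147 and 166 in female CAIA, with 151 and 144 in male Ctrl and 158, 141 and 156 in male CAIA. Every female CAIA library was above every female control, the male groups overlapped, and the fold change was 0.16 ± 0.079 in females and 0.10 ± 0.060 over both sexes (edgeR adjusted p = 0.972 and 0.869).

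Uqcrc1 and Uqcrfs1, the Rieske iron-sulfur protein gene, were at -0.0095 ± 0.081 and -0.038 ± 0.078 over both sexes. The small subunits varied more between libraries than the core ones. Uqcr11 was at 48.3, 35.4 and 24.4 CPM in female Ctrl, 30.6, 35.0 and 34.8 in female CAIA, 46.4 and 40.2 in male Ctrl and 41.0, 34.5 and 35.1 in male CAIA. Its controls alone spanned the range of all libraries, and the fold change was -0.17 ± 0.14. Uqcrq, at 54.8 to 103 CPM in Ctrl and 66.2 to 80.2 in CAIA, was at -0.14 ± 0.12, and Uqcr10 at -0.059 ± 0.095.

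Complex IV reduces oxygen to water, and its nuclear subunits surround a core made from mitochondrial DNA. Its 15 members had the lowest median over both sexes, -0.055, with 0.056 in females and -0.18 in males. Over both sexes 13 of 15 were below 0, in females 4 and in males all 15. Cox4i1, the largest nuclear subunit, was at 340, 304 and 260 CPM in female Ctrl and 293, 318 and 351 in female CAIA, with 424 and 322 in male Ctrl and 346, 308 and 358 in male CAIA. The groups overlapped in both sexes, and the fold change was -0.027 ± 0.092.

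The other broadly expressed subunits followed the same libraries. Cox8a was at 249, 195 and 125 CPM in female Ctrl and 177, 189 and 201 in female CAIA, with 267 and 202 in male Ctrl and 208, 205 and 173 in male CAIA. Its female controls alone held the lowest of all libraries and the second highest, and the fold change was -0.13 ± 0.15. Cox6a1 was at -0.14 ± 0.13, Cox5b at -0.055 ± 0.12, Cox7b at -0.060 ± 0.10, Cox7a2 at -0.054 ± 0.091, Cox6b1 at -0.032 ± 0.097 and Cox5a at -0.032 ± 0.080. Cox7a2l, studied for a role in joining complexes III and IV, was at 94.0, 82.7 and 85.2 CPM in female Ctrl. In female CAIA it was at 96.9, 102 and 102. It was higher in every female CAIA library, with 0.20 ± 0.11 in females, -0.022 ± 0.12 in males and 0.089 ± 0.081 over both sexes (edgeR adjusted p = 0.935).

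Isoforms known from other tissues were a small part of each complex IV family. As a share of the family's summed RPKM, the median over 11 libraries was 0.422% for Cox4i2 (known from lung), 4.01% for Cox6a2 (heart and skeletal muscle), 4.18% for Cox6b2 (testis) and 1.08% for Cox7a1 (heart and skeletal muscle). The shares overlapped between treatments: Cox6a2 took 2.87% to 5.35% in Ctrl and 3.59% to 4.48% in CAIA, and Cox6b2 3.09% to 6.07% and 2.85% to 4.86%. Cox4i2 took 0.354% to 0.524% in Ctrl and 0.278% to 0.621% in CAIA.

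**Figure D5:**
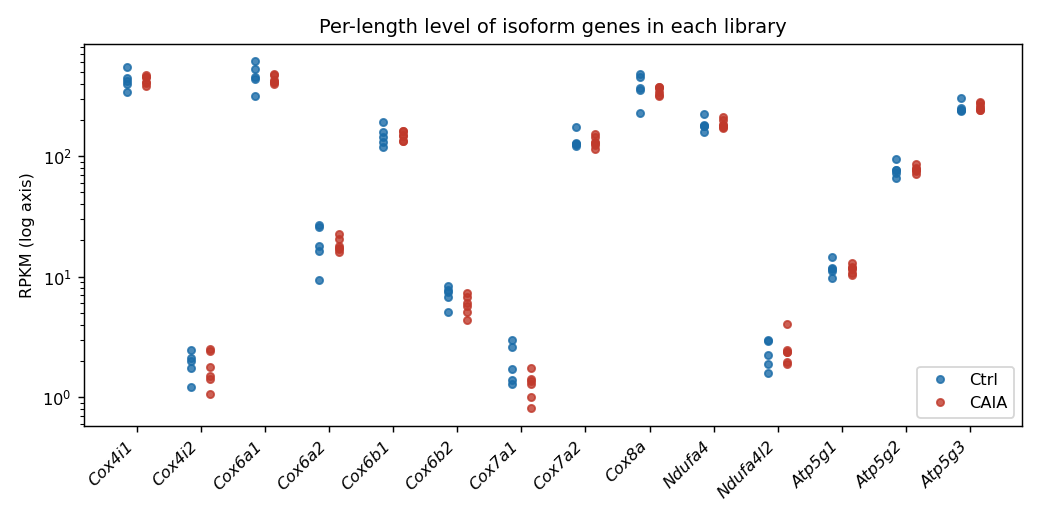
RPKM on a log axis of isoform genes of complex IV, Ndufa4 and the c ring of ATP synthase, each point 1 library, Ctrl (5 libraries) beside CAIA (6 libraries). Cox4i1, Cox6a1, Cox6b1, Cox7a2, Ndufa4 and Atp5g3 exceed the other genes of their families, and Ctrl and CAIA points overlap for every gene shown. The length used is 4715 bases for Atp5g1, 731 for Atp5g2 and 723 for Atp5g3.

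Cox7a1 (ENSMUSG00000074218, chromosome 7, 30184144 to 30186078) had the most negative fitted fold change of all members. Its counts were 13, 17 and 30 in female Ctrl and 15, 16 and 20 in female CAIA, with 31 and 15 in male Ctrl and 8, 10 and 14 in male CAIA. In CPM the female groups overlapped, and all 3 male CAIA libraries (0.32, 0.39 and 0.50) were below both male controls (1.17 and 0.54). The fold change was -0.69 ± 0.31 over both sexes (edgeR adjusted p = 0.750) and -1.06 ± 0.46 in males (adjusted p = 0.869). Its share of the Cox7a family was 0.986% to 2.03% in Ctrl and 0.618% to 1.13% in CAIA.

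Cox6b2 was at 2.96, 4.32 and 4.53 CPM in female Ctrl and 2.99, 3.52 and 4.26 in female CAIA, with 4.89 and 3.98 in male Ctrl and 2.57, 3.97 and 3.34 in male CAIA. The male groups did not overlap, though 2 of the values differed only in the second decimal. The fold change was -0.28 ± 0.17 over both sexes (edgeR adjusted p = 0.870). Cox4i2 was at -0.12 ± 0.25 and Cox6a2 at -0.070 ± 0.23.

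Complex V makes ATP. Its 17 members had medians of 0.072 in females, -0.16 in males and -0.013 over both sexes, with all 17 above 0 in females and 14 below 0 in males. The catalytic subunit gene Atp5b (chromosome 10, 128083273 to 128090391) was at 1091, 1109 and 944 CPM in female Ctrl and 1080, 1034 and 1184 in female CAIA, with 1249 and 1070 in male Ctrl and 1109, 1038 and 1111 in male CAIA. Groups overlapped in both sexes, and the fold change was -0.013 ± 0.074 (edgeR adjusted p = 0.991). The 5 genes of the F1 head (Atp5a1, Atp5b, Atp5c1, Atp5d, Atp5e) lay between -0.094 and 0.12.

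Atp5d, the delta subunit of the F1 stalk, stood out in 1 library. It was at 208, 210 and 167 CPM in female Ctrl, 183, 189 and 220 in female CAIA, 274 and 187 in male Ctrl and 193, 403 and 204 in male CAIA. The value in male CAIA 2 was the highest, and the fold change over both sexes was 0.12 ± 0.21. Without the filter on low counts, females against males gave -0.33 with an adjusted p of 0.00295, against -0.34 ± 0.21 and 0.782 with it (edgeR), and over all settings the adjusted p ran from 0.00295 to 0.983. Exons of Atp5d overlap those of Cbarp on the other strand. With no stated strand setting for the counting, reads of the 2 genes cannot be told apart.

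Among the subunits outside the head, Atp5l and Atp5mpl had the lowest p in males. Atp5l, the g subunit at the dimer interface, was at 35.2, 35.6 and 34.5 CPM in female Ctrl and 34.0, 36.0 and 39.7 in female CAIA, with 46.3 and 44.0 in male Ctrl and 37.3, 36.3 and 41.8 in male CAIA. Both male controls lay above all 3 male CAIA libraries and above every female library, with a male fold change of -0.23 ± 0.097 (edgeR adjusted p = 0.859). Atp5mpl, a small membrane subunit, was at -0.29 ± 0.12 in males (adjusted p = 0.866), with 38.3 CPM in male Ctrl 1 and 27.8 to 30.4 in the other controls.

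The 3 genes of the c ring, which make the same mature protein, kept a steady ratio. Of their summed RPKM, Atp5g3 took 73.3% to 75.4%, Atp5g2 20.8% to 23.4% and Atp5g1 3.03% to 3.75% over the 11 libraries, with Ctrl and CAIA ranges that overlapped for each. The small share of Atp5g1 depends on the length used, 4715 bases against 731 for Atp5g2 and 723 for Atp5g3. In total counts Atp5g1 (16408) and Atp5g2 (16995) were close. The fold changes of the 3 genes over both sexes were -0.00017 ± 0.070, -0.000078 ± 0.072 and -0.048 ± 0.083. Atp5g2 was higher in every female CAIA library (56.8, 56.4 and 63.2 CPM against 55.8, 48.1 and 52.9). The peripheral stalk gene Atp5h was at -0.073 ± 0.082. Atp5s, a gene of the series whose product is not a standing subunit, was at 0.077 ± 0.095.

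Other genes of the pathway were examined as lists, described by counts and medians. None of the lists of pathway genes below held a gene that passed in edgeR in any of the 5 contrasts. The 45 assembly factors had a median of -0.0099 over both sexes, the 77 mitochondrial ribosomal proteins -0.018, the 17 genes of pyruvate dehydrogenase and the citric acid cycle 0.016, and the 16 regulators of mitochondrial biogenesis 0.017. In males 36 of 45 assembly factors and 68 of 77 mitochondrial ribosomal proteins were below 0, as most members were. The regulators were not: 9 of 16 were above 0 in males and 8 of 16 in females. Their mean level was also the lowest of all libraries in male Ctrl 1, at 4.59, with 4.60 to 4.69 elsewhere.

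Among these regulators, Esrra, an estrogen-related receptor gene, was at 97.2 CPM in male Ctrl 1 and 52.6 in female Ctrl 3, the 2 libraries in which the members were highest and lowest. Esrrg, a related gene, was at 14.9 CPM in male Ctrl 1, its lowest library, and 19.0 to 31.3 in the others. The fold changes over both sexes were -0.15 ± 0.11 and 0.22 ± 0.13, and Polrmt, the mitochondrial RNA polymerase gene, was at -0.11 ± 0.071. The assembly factor gene with the lowest p was Acad9, at 0.11 ± 0.059 (edgeR adjusted p = 0.829).

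For the 13 subunits encoded by mitochondrial DNA, the library with the highest mean level was not male Ctrl 1. Their mean level, in which each gene weighs the same, was 7.83 in male Ctrl 1 and highest in female Ctrl 1, at 8.20. It was lowest in female Ctrl 3, at 7.51. There mt-Atp8 (0.20 CPM), mt-Nd4l (3.51) and mt-Co2 (34.0), all far below mt-Co1, were at their lowest. Several abundant ones were at their highest in that same library: mt-Co1 at 12392 CPM, mt-Cytb at 5150, mt-Nd4 at 2679 and mt-Nd6 at 1146. Between treatments the abundant ones lay within their spread. mt-Co1, the catalytic subunit of complex IV, was at 11765 ± 539 CPM in Ctrl (SD, n = 5) and 11668 ± 615 in CAIA (n = 6). mt-Cytb of complex III was at 4786 ± 248 and 4611 ± 232, and mt-Nd4 of complex I at 2460 ± 140 and 2392 ± 143. The genes with lower counts varied more, and whether such low values measure their transcripts fully was not tested. mt-Atp6 was at 144, 62.4 and 37.8 CPM in female Ctrl, 34.0, 30.9 and 47.6 in female CAIA, 73.7 and 45.8 in male Ctrl and 41.1, 68.5 and 25.4 in male CAIA. Its groups overlapped in both sexes, with a fold change of -0.76 ± 0.42 over both sexes (edgeR adjusted p = 0.866). mt-Co3 was at 20.3 to 182 CPM and mt-Nd4l at 3.51 to 42.3, with no order by treatment.

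Of the 14 rows under the count minimum, Cox8b was the one whose treatments did not overlap. Cox8b, a complex IV isoform of heart, skeletal muscle and brown fat, had 14, 23 and 16 counts in female Ctrl and 2, 4 and 1 in female CAIA, with 13 and 16 in male Ctrl and 2, 0 and 4 in male CAIA. It took 0.280% to 0.704% of the Cox8 family's RPKM in Ctrl and 0% to 0.126% in CAIA. No member of the 83 was separated by treatment in this way.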

How the data were processed

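RNA was measured as read counts per gene in 11 libraries. Per the submitters' processing notes, the tools were featureCounts 1.5.0-p3, HISAT2 2.0.5 and cutadapt 1.9.1, and the build was GRCm38. Neither the strand setting nor the gene models' release is stated for the counting. The deposited values are raw counts, and 54495 of 54532 gene IDs matched GENCODE M21. Each pair of replicates differed by more than counting noise (chi-square per degree of freedom 6.81 to 29.2).

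Group means were fitted to all 19619 genes kept by filterByExpr with edgeR 4.0.16 (TMM, robust quasi-likelihood, 7 residual degrees of freedom, R 4.3.3), with Benjamini-Hochberg adjustment over all of them. DESeq2 1.42.0 and limma-voom 3.58.1 were alternatives, as were no low-count filter, a choroid plexus or neuron marker covariate, a replicate block and leaving out each library. The script was tested on simulated data. CPM uses TMM library sizes, and RPKM the longest principal transcript. Of the members, 30 have exons that overlap another gene.

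Named members (41) were those with the lowest p per complex, the highest and lowest RPKM per complex, the isoform genes, the 3 lowest p in each other contrast and those next to the count minimum. Up to 3 genes with the lowest p were taken from each pathway list. Other members, with Atp5d, Uqcrfs1 and Atp5a1 among them, were named after their values were seen. The members and lists were chosen with earlier results of these data known. The values of 1 member are not reported here.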

Additional observations from a re-analysis of the deposited data

Results flagged for a closer look

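The 41 named members and the 5 complex levels were each examined within the 5 Ctrl and the 6 CAIA libraries for a library far from the others. Chance would give about 1 in 20, or 4.6, in 92 independent examinations. They were not independent, since members share a level per library and the complex II level includes Sdhc and Sdhd. The number found therefore cannot be weighed against 4.6. Of the 92 examinations 8 found such a library. Among the 5 controls, 7 of these were male Ctrl 1. There Sdhc was at 112 CPM (82.4 to 90.2 in the other controls), Sdhd at 87.3 (67.4 to 71.7), Cox7a2 at 115 (79.6 to 85.2), Cox5a at 104 (72.1 to 80.4), Atp5g3 at 222 (172 to 182) and Atp5mpl at 38.3 (27.8 to 30.4). The mean level of complex II was also apart there, at 7.26 log2 CPM against 6.95 to 7.03. Among the 6 CAIA libraries, Ndufa4l2 was at 3.77 CPM in male CAIA 2 and at 1.74 to 2.30 in the others.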

How the results depend on the processing

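Over the alternatives run, 399 summary values (counts of members passing and medians by complex) stayed within the spread between replicates or 1.5-fold of the main count, and 21 did not. Without the low-count filter, 1 member passed over both sexes and 1 for female against male; the cause was not tested. With the choroid plexus covariate, the medians over both sexes were -0.25 (I), -0.21 (III), -0.37 (IV) and -0.21 (V), in females -0.17, -0.14, -0.34 and -0.17, and in males -0.36 (I) and -0.44 (IV). Leaving out 1 library at a time gave, over both sexes, -0.092 to 0.076 (I), -0.058 to 0.058 (II), -0.12 to 0.065 (III), -0.15 to 0.064 (IV) and -0.064 to 0.055 (V). In females it gave 0.034 to 0.18, 0.048 to 0.11, -0.030 to 0.17, -0.011 to 0.16 and 0.0042 to 0.13. In males it gave -0.31 to 0.059, -0.23 to 0.062, -0.31 to 0.049, -0.36 to 0.040 and -0.25 to 0.018, the ends being the fits without male Ctrl 3 and without male Ctrl 1. Where 1 male control remained, it was assumed to vary like the other groups. Over all genes, 117 passed over both sexes, 51 in females, 0 in males and 9 for female against male. DESeq2 called 222, 171, 71 and 23, and edgeR without the filter 470, 452, 423 and 278. The correlation of same-numbered deviations from group means was -0.21 to 0.10 in 15 pairs, against -0.25 to 0.25 in the other pairs. Deviations within a group of 2 or 3 libraries are tied to each other, so this cannot decide whether replicate numbers pair the samples. With the replicate block, 0 members passed and the medians over both sexes were 0.0087, 0.018, -0.012, -0.032 and -0.0010. RPKM from joined exons was an alternative chosen after seeing the data.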

Other observations

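Cox8b lay under the count minimum and was picked out after its values were seen. It was at 0.612 ± 0.166 CPM in Ctrl (SD, n = 5) and 0.0780 ± 0.0568 in CAIA (n = 6). The fitted log2 fold change over both sexes was -2.85 ± 0.49, with an edgeR adjusted p of 0.0148, and it was lower in 6 of 6 CAIA libraries than in every control. It passed the low-count filter only through the controls, at 13 to 23 counts each, against 0 to 4 in CAIA. Since it was also picked for its values, the p-values describe the row and are not support for a difference. Over the settings run, the adjusted p went from 7.25e-06 to 0.999. It was 0.0591 without female CAIA 1, 0.0572 without female CAIA 3 and 0.0583 without male Ctrl 1. With the choroid plexus level as a covariate the fold change was -4.10 ± 1.72, with an adjusted p of 0.999. Choroid plexus markers separated the treatments in the same direction, at 5.26 to 6.19 log2 CPM in Ctrl and 1.76 to 4.79 in CAIA, and 6 of the 14 passed as lower over both sexes. Their part in the Cox8b value was not tested.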
